A study of Brassica rapa subsp. pekinensis with 2 samples.

Results

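PGA4 is a polygalacturonase gene of Arabidopsis (AT1G02790), and 4 genes of Chinese cabbage were paired with it in the authors' deposited pathway table. They were Bra033347, Bra030510, Bra010873 and Bra010872, and they are termed the PGA4 copies here. They were taken from the row of that table on pentose and glucuronate interconversions, which held 20 genes. Expression values were used for 41019 genes, those with Bra identifiers. The row draws on genes the authors had called by comparing the expression values of both libraries, so the copies were chosen by a difference between fertile and sterile buds. That difference is given as a description, with no test. A further copy of AT1G02790 that the authors had not called would carry no name here. The coding sequences of the copies were not used here.

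Polygalacturonases cut the chain of galacturonic acid units that forms the backbone of pectin, the gel-like polysaccharide of the plant cell wall. PGA4 belongs to the exo-acting type, which releases units from the end of the chain. In flowering plants such exopolygalacturonases are known as abundant pollen transcripts, made late in pollen development, when the grain prepares the tube that will grow through the pistil. The genome of Brassica rapa was triplicated after its ancestors parted from those of Arabidopsis, and single Arabidopsis genes often have several counterparts in it.

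The buds came from the AB line AB02 of Brassica rapa subsp. pekinensis, in which male sterility is genic and inherited through multiple alleles. Plants of such a line segregate, so that fertile and sterile plants arise within it. The fertile group was 1 library of buds with the genotype given as fertile and the sterile group 1 library of buds with the genotype given as sterile, both labelled male and both grown in a greenhouse from vernalized seed. The alleles each group carried, the number of plants per library and the bud stage are not given in the sources used here. With 1 library per group, no difference between the buds has a replicate check, and no p-value was computed.

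The values were RPKM, reads scaled to gene length and library total, as deposited by the authors. The RPKM values corresponded to 1803154 reads for fertile and 1567647 reads for sterile buds, if gene lengths come in steps of 3 bp as coding lengths do. For the 4 copies the number of reads itself was recovered exactly and does not depend on that step. Intervals are 95% Clopper-Pearson counting intervals. They and the limits set by a count of 0 cover counting error only, since sequencing reads are not independent molecules.

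In fertile buds the PGA4 copies stood at 4 distinct levels, and in sterile buds none of them had a read. Bra033347 had 959 RPKM in the fertile library, from 2183 reads, and 0 RPKM in the sterile library. Bra030510 had 523 RPKM in the fertile library, from 1190 reads, and 0 in the sterile library. Bra010873 had 143 RPKM in the fertile library, from 327 reads, and 0 in the sterile library. The lowest copy was Bra010872, with 84.7 RPKM in the fertile library, from 193 reads, and 0 in the sterile library. Each copy was thus well covered in one library and without a read in the other. At the sterile depth, 3 reads would have given 1.52 RPKM in Bra033347, Bra030510 and Bra010872 and 1.51 RPKM in Bra010873. A count of 0 does not exclude levels of this size, and the counting intervals below allow slightly higher ones.

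Set against 3 reads in the sterile library, Bra033347 was lower in sterile buds by a factor of 633, and its counting interval began at 514. Bra030510 was 345-fold lower against 3 reads, with a lower end of 280. For Bra010873 the level was 94.8-fold lower on the same basis, with a lower end of 76.6. Bra010872 was 55.9-fold lower on that basis, with a lower end of 45.1. These folds and lower ends follow the fertile levels, because the sterile count was 0 in each copy. They do not show that the copies differed in how far they were reduced. Over all copies, 3893 reads in the fertile library stood against 0 in the sterile library. The summed copies were thus 1128-fold lower against 3 reads, with a lower end of 917. Because whole buds were sequenced, fewer cells of a type and less of the RNA per cell cannot be told apart.

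**Figure D1:**
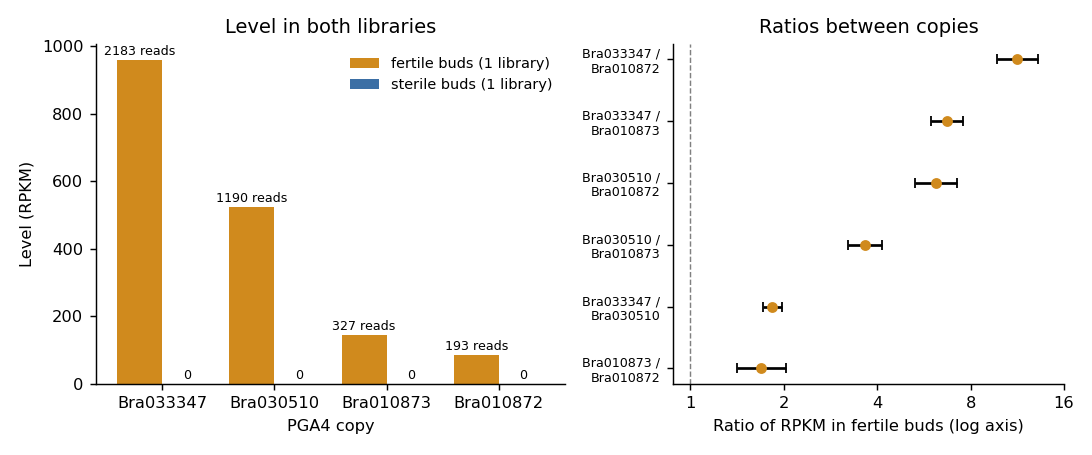
Left, level of each PGA4 copy in RPKM in the fertile (orange) and sterile (blue, at 0) library, with the recovered reads above the bars. Right, the 6 ratios between copies in fertile buds on a log axis, with points for the ratio and bars for the 95% counting interval; each interval lies above 1 (dashed line).

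Differences are given as sterile minus fertile on the log2(RPKM + 1) scale, on which differences of weakly expressed genes come out too small. They were -9.91 for Bra033347, -9.03 for Bra030510, -7.17 for Bra010873 and -6.42 for Bra010872. Their median was -8.10. The median over the 27940 genes with at least 1 RPKM in a library was 0.17. Among those genes 14.5% were lower in sterile buds by at least 1 on this scale and 11.5% were higher. This is a size criterion with no test behind it. The split of 4042 lower and 3224 higher genes became 4460 and 2313 when sterile values were divided by the median ratio, and 4524 and 2202 when divided by a trimmed mean, while the copies at 0 kept their values. The copies passed it 4 of 4, as their choice from the authors' called genes required. The genes called as lower in the authors' deposited table were 2.21% of all genes.

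Fertile over sterile, the authors' deposited table gave a log2 fold change of 11.4 for Bra033347, 10.5 for Bra030510, 8.62 for Bra010873 and 7.86 for Bra010872. The q-values in the authors' deposited table ran from 1.70e-165 for Bra033347 to 3.82e-23 for Bra010872, and the highest of any gene listed there was 0.000999. By log2 fold change, Bra033347 stood at place 15 of the 1012 genes of the authors' deposited table and Bra010872 at place 150. For genes with 0 reads in sterile buds the fold in the authors' deposited table rose in proportion to the fertile reads, with no division by gene length. This places long genes higher than their RPKM would, but the copies are nearly equal in length and keep their order.

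A count of 0 in sterile buds was found in 8.03% of the 27940 genes kept. Of the 2764 genes with at least the fertile RPKM of the lowest copy, Bra010872, 187 had 0 reads in sterile buds, or 6.77%. Of the 132 genes at or above Bra033347, 19 had 0 reads, or 14.4%. Among genes the authors had called as lower in sterile buds, which is the pool the copies came from, the share was 52.4% (475 of 906). The copies had a read count of 0 in 4 of 4 cases, and the fewest fertile reads of any of these 475 genes was 27.

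The copies differed from each other in fertile buds by more than counting error in each of the 6 pairs. The highest, Bra033347, had 11.3 times the RPKM of the lowest, Bra010872 (interval 9.76 to 13.2). It had 1.83 times the level of Bra030510 (interval 1.71 to 1.97) and 6.69 times that of Bra010873 (interval 5.95 to 7.54). Bra030510 in turn had 3.65 times the level of Bra010873 (interval 3.22 to 4.14) and 6.17 times that of Bra010872 (interval 5.29 to 7.22). The copies thus fell into a higher pair, Bra033347 and Bra030510, and a lower pair, Bra010873 and Bra010872, with the widest step between the pairs. How reads that match more than 1 copy were counted is not given in the sources used here. Levels of near-identical copies are uncertain for that reason, and the intervals do not cover it.

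Bra010872 and Bra010873 carry consecutive identifiers. Bra010873 had 1.69 times the RPKM of Bra010872 in fertile buds (interval 1.41 to 2.03), or in the other direction a ratio of 0.592. This was the smallest ratio of the 6 pairs. The interval for Bra033347 over Bra030510, which do not have neighbouring identifiers, lay within that of the consecutive pair, so the consecutive pair was not measurably closer in level than the higher pair. Together Bra010872 and Bra010873 reached 228 RPKM, and Bra030510 alone had 2.29 times that sum.

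The summed level of the 4 copies in fertile buds was 1709 RPKM. Bra033347 held 56.1% of it (interval 54.5 to 57.6), Bra030510 30.6%, Bra010873 8.38% and Bra010872 4.96%. The consecutive pair therefore supplied 13.3% of the PGA4 level. With length steps of 3 bp, the copies took up 0.216% of the reads of the fertile library (interval 0.209 to 0.223). With steps of 1 bp the library total would be larger and this share smaller, which the interval does not cover. Ranked by fertile RPKM over the 41019 genes, Bra033347 was at place 132, Bra030510 at place 333, Bra010873 at place 1596 and Bra010872 at place 2764.

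The lengths behind the RPKM values were also recovered. Bra033347, Bra030510 and Bra010872 had the same length of 421 steps, and Bra010873 had 422. With steps of 3 bp these are 1263 and 1266 bp. Among the 481 genes with exact reads, 3 had 421 steps, and these were the PGA4 copies of that length. A length of 422 steps was found in 2 genes, Bra010873 and a gene that is no PGA4 copy. The copy with the different length was 1 of the consecutive pair, and its partner had the length of the more distant copies. Because the lengths differ by a single step, ratios between copies were nearly the same per read and per RPKM. For example, Bra010873 had 1.69 times the reads of Bra010872 as well.

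No neighbouring identifier combined a high level in fertile buds with 0 reads in sterile buds. The 5 identifiers on each side of the copies gave 30 other genes, of which 22 had at least 1 RPKM in a library. By the size rule sterile buds had lower levels of 4 of the 22 and higher levels of 4, beside 14.5% and 11.5% of all genes kept. The authors' deposited table listed 0 of the 30, beside 1012 of all 41019 genes. Of all genes, 187 had both 0 reads in sterile buds and at least the fertile RPKM of Bra010872. With shares this small, finding no such gene among 30 lies near the share over all genes and says nothing particular about the neighbours. The median difference of the 22 was 0.40, and they ranged from -2.49 to 2.44.

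Next to Bra033347, Bra033346 had 288 RPKM in fertile buds and 335 RPKM in sterile ones. On the other side, Bra033349 had 325 and 239 RPKM. Between Bra033347 and Bra033349, Bra033348 was low, with 4.22 RPKM in fertile buds and 9.71 RPKM in sterile ones. Bra030509, just before Bra030510, had 100.4 RPKM in fertile buds and 119 RPKM in sterile ones. Bra010871 and Bra010874, on either side of the consecutive pair, were near or at 0, with 0.931 and 0 RPKM in the fertile library and 0 in the sterile library. The lowest differences among the neighbours were those of Bra030513, from 24.2 to 3.49 RPKM, and Bra033350, from 39.2 to 6.44 RPKM. Both kept reads in the sterile library. Bra010870, with 2.38 RPKM in fertile buds, Bra033343, with 0.761 RPKM, and Bra010871 were at 0 in the sterile library alone, each from a low fertile level. Identifiers were used here as names in order, and distances in the genome were not analysed.

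**Figure D2:**
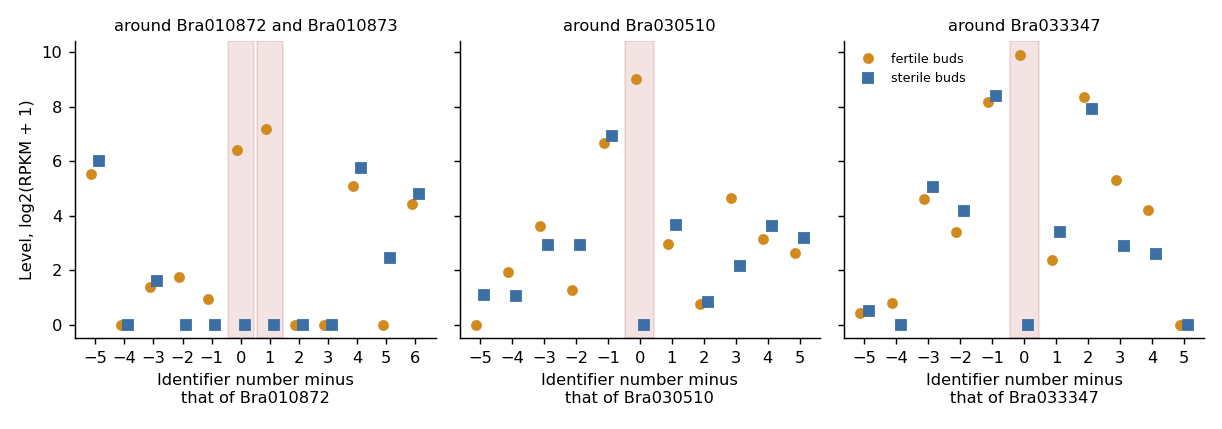
Level in log2(RPKM + 1) of the PGA4 copies (shaded) and of the genes with the 5 identifier numbers on each side, in the fertile (circles) and sterile (squares) library; the horizontal axis counts identifier numbers and not bases. The copies stand high in fertile buds and at 0 in sterile buds. The authors' deposited table lists 0 of the 30 neighbours, beside 1012 of all 41019 genes.

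The other 16 genes of the pathway row code mostly for enzymes that act on the same polymer. All 16 were lower in sterile buds and 13 had 0 reads there, beside 52.4% of all genes called as lower. Their median difference was -4.65, against -8.10 for the PGA4 copies and -4.51 for the 1012 called genes, 106 of them higher in sterile buds. At 0 sterile reads the difference only restates the fertile level, so these medians do not compare how far genes were reduced. The median fertile level of the 16 genes was 47.6 RPKM, below that of each PGA4 copy. These genes too were listed because the authors had called them. In the fertile library the 4 copies made up 50.1% of the 3414 RPKM summed over the row, and in the sterile library they made up none of its 5.88 RPKM. In the authors' deposited table the row counted 11 of 62 Arabidopsis genes (p-value 5.69e-06, corrected p-value 0.000678). PGA4 is 1 of those 11 genes, so its 4 copies entered that count once. The copies were also listed under starch and sucrose metabolism, where the corrected p-value in the authors' deposited table was 0.805.

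The only other gene of the row paired with a known polygalacturonase was Bra007332 (ADPG1), whose Arabidopsis counterpart acts in the opening of anthers and pods. It had 12.8 RPKM in the fertile library, from 30 reads, and 0 in the sterile library. Against 3 reads it was 8.69-fold lower, with a lower end of 6.64. The summed PGA4 copies had 133 times its fertile level. Bra012756 (AT1G30350), of the pectin lyase-like family and in Arabidopsis a probable pectate lyase, had 579 RPKM in the fertile and 0 in the sterile library. It lay between the higher PGA4 copies, 1.11 times above Bra030510 (interval 1.02 to 1.20).

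Pectin methylesterases remove methyl groups from pectin and so prepare it for polygalacturonases and pectate lyases. The pair of genes for PPME1, which acts in pollen tube walls, stood between the higher and the lower PGA4 copies, with 400.03 RPKM in Bra009265 and 168 RPKM in Bra028699 in the fertile library and 0 in the sterile library. Bra028699 was 1.17 times above Bra010873 (interval 1.00 to 1.37), a difference at the edge of counting error. Bra020658 (AT5G49180) had 97.1 RPKM and Bra036219 (PME31) 39.5 RPKM in the fertile library, against 0 and 0.669 RPKM in the sterile library. The level of Bra020658 did not differ from that of Bra010872 beyond counting error (ratio 1.15, interval 0.953 to 1.38).

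Pectate lyases cut the same backbone by another reaction. Besides Bra012756, at 579 RPKM above all PGA4 copies but Bra033347, the 9 genes of this kind ranged from 11.1 RPKM in Bra023504 (AT5G15110) to 123 RPKM in Bra040506 (AT3G01270) in the fertile library. The ratio of Bra010873 to Bra040506 was 1.16 (interval 0.961 to 1.41), which did not exceed counting error. In the sterile library 8 of the 9 had 0 reads, beside 52.4% of all genes called as lower. Bra016700 (AT59) had 1 read there as a minimum. The last gene of the row, Bra024619 (ALDH2B7), is an aldehyde dehydrogenase and no pectin enzyme. It had 75.7 RPKM in fertile buds and 4.75 RPKM in sterile ones, the highest sterile level in the row, and its fertile level was within counting error of Bra010872 (ratio 1.12, interval 0.917 to 1.36).

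**Figure D3:**
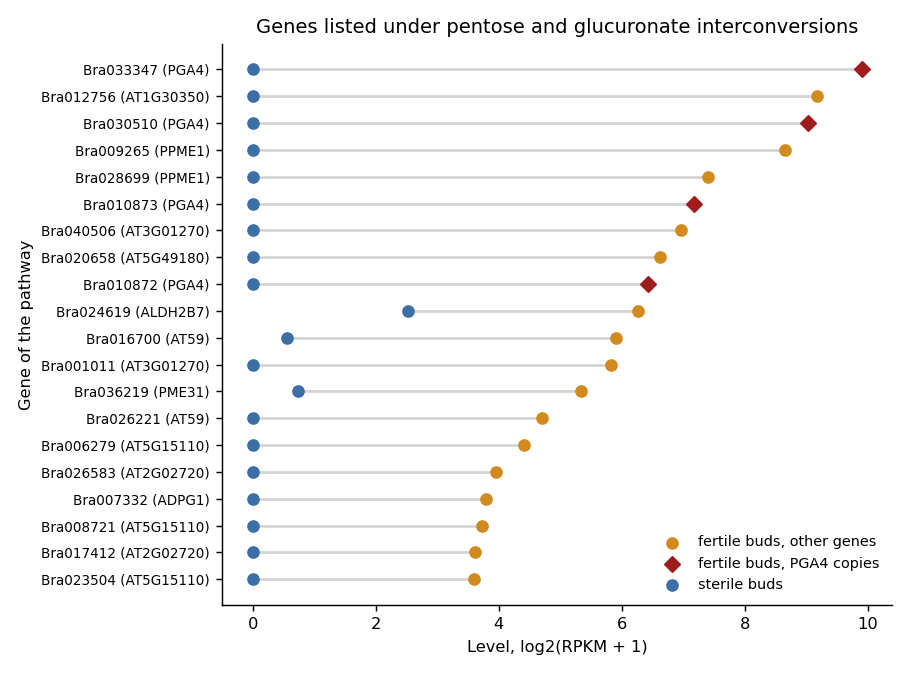
Level in log2(RPKM + 1) of the 20 genes of the pathway row in fertile buds (orange circles, or red diamonds for the PGA4 copies) and sterile buds (blue circles), ordered by fertile level. The PGA4 copies take places 1, 3, 6 and 9. Of the 20 genes, 17 are at 0 in sterile buds, beside 52.4% of all genes called as lower.

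PGA4 was among the named genes with the most called copies. Arabidopsis codes were paired with 224 called genes, and 40 codes had at least 2 called copies. PGA4 and AT1G23580, a gene with a DUF220 domain of unknown function, had 4 copies each, 6 codes had 3 and 32 had 2. All copies of a code lay in the same direction in each of the 40 codes, in a pool of called genes of which 906 of 1012 were lower in sterile buds. In 25 of the 40, PGA4 included, every copy had 0 reads in sterile buds. The share of 52.4% given above counts genes called as lower and not whole codes, so it is no background for this count. No other background was computed. The codes cover 224 of the 1012 called genes, and whether their naming favoured genes at 0 in sterile buds was not tested. Other codes shared both traits, so neither count sets the copies apart from other called genes.

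Copies of 1 Arabidopsis gene differed in level to varying degrees. The highest copy exceeded the lowest by a median of 1.87 times over the 40 codes, from 1.01 to 41.6 times, and in PGA4 by 11.3 times. In 6 codes the ratio was larger, and each of them had 2 copies. AT1G23580, the other code with 4 copies, ranged over 5.28 times, from 36.8 to 194 RPKM in fertile buds. A code with more copies can span a wider range for that reason alone, so the 32 codes with 2 copies are not a like comparison. Consecutive identifiers occurred in 3 codes. The pair of AT1G23580, Bra016337 and Bra016338, differed 1.46 times in fertile buds, and the pair of AT3G28790, Bra033060 and Bra033061, 1.45 times, beside 1.69 times for Bra010873 and Bra010872. All 6 genes of these pairs were at 0 in sterile buds, beside 475 of the 906 genes called as lower.

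**Figure D4:**
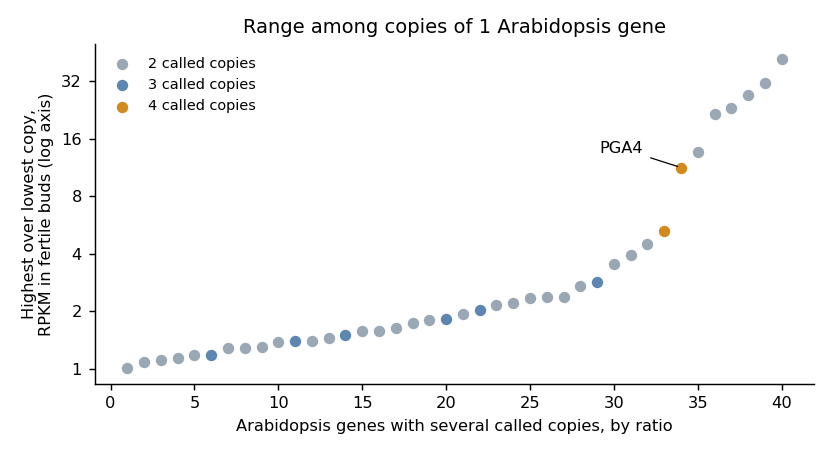
Ratio of the highest to the lowest called copy in fertile buds (RPKM, log axis) for each of the 40 Arabidopsis genes with at least 2 called copies, ordered by ratio and coloured by the number of copies. PGA4, at 11.3, lies above the other gene with 4 copies, at 5.28, and below 6 genes with 2 copies.

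Genes most like each copy were found by the distance of log2(RPKM + 1) over both libraries, among the 224 genes with an Arabidopsis code, all of them called by the authors. With 2 libraries, this likeness picks genes at or near 0 in sterile buds and then ranks them by fertile level. For Bra033347 the nearest was Bra022674 (AT5G53820), a late embryogenesis abundant protein gene, at 897 RPKM and a distance of 0.10. For Bra030510 it was Bra012756, the probable pectate lyase gene described above, at a distance of 0.15. For Bra010873 it was Bra035912, a copy of AT1G23580, at 143 RPKM and a distance of 0.0070. For Bra010872 it was Bra035268 (AT4G31830), at 85.1 RPKM and a distance of 0.0065. All of these had 0 reads in sterile buds, which the distance favours.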

How the data were processed

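RNA was extracted from buds with Trizol and sequenced by Illumina protocols, per the labels' protocols. The submitters' processing notes name TopHat. Read counter, genome build, annotation and the authors' test are not given in the sources used here. RPKM per gene were deposited by the authors. For their called genes, the authors also deposited p-values, q-values and log2 fold changes (fertile over sterile).

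Of 51357 features with deposited values, the 41019 with Bra identifiers were used. The called genes were limited to Bra identifiers in the same way. For the 481 called genes at 0 in a library, the deposited fold was proportional to reads. This gave whole reads, with a largest distance from a whole read of 1.76e-08. Library totals followed from requiring whole gene lengths. With length steps of 1 bp they would be 5409462 and 4702941 reads. For the genes of the row above 0 in both libraries, the smallest whole reads that fit both values were used. Read recovery and the size rule were run on simulated reads with proportional folds and whole lengths built in. That run checked the code and could not show that the deposited values follow this model. Genes with at least 1 RPKM in a library were kept, and a pseudocount of 1 was used. A fold against 0 reads was computed against 3 reads in that library. No RefSeq entry was matched to the copies. The members and lists were chosen with earlier results of these data known. The genes named were the copies, the other genes of the row, the 5 identifiers on each side and the 3 most similar genes with a code per copy, of which the nearest is given. Python 3.11.15, NumPy 2.4.6, pandas 2.3.3 and SciPy 1.17.1 were used.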

Additional observations from a re-analysis of the deposited data

How the results depend on the processing

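Because the sterile values of the PGA4 copies are 0, no scaling or pseudocount could change the direction of their differences. That direction was therefore fixed in advance and is no check. Rescaling the sterile library left their differences as they were for the same reason. Their median difference was -8.10 with a pseudocount of 1, -9.10 with 0.5 and -11.4 with 0.1, so its size depends on the pseudocount. The bounds from reads do not depend on it, but they rest on the library totals and would shift with another scaling. The other genes of the row had medians of -4.65, -5.52 and -7.43 under these pseudocounts, and -4.69 and -4.70 with the median ratio and the trimmed mean. These scalings shifted the sterile values by 0.20 and 0.23 on the log2 scale. Genes counted as lower by the size rule numbered 4042, and 4460 and 4524 after the scalings, while those counted as higher numbered 3224, and 2313 and 2202. The share of lower among these calls therefore moved with the scaling. With at least 5 RPKM in a library, 2426 genes were lower and 2011 higher, since fewer genes were counted. Without division by gene length the ratio of Bra010872 to Bra010873 was 0.590 in place of 0.592, and the share held by Bra033347 stayed at 56.1%. No paired analysis was possible because each group has 1 library, and no replicate could be left out.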
